A study of Homo sapiens with 24 samples.

Results

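A2780cis is the platinum-resistant counterpart of A2780, a human ovarian cancer cell line, and the untreated libraries of both lines were compared to describe how resistant and parental cells differ before any drug is added. The members are the 12 libraries of 24 in the series that were prepared from cells without 5-FdU-ECyd, chosen by their labels alone. They are 6 libraries of A2780 and 6 of A2780cis, with 3 replicates at 6 h and 3 at 12 h in each line. No cisplatin is described for the culture of the A2780 cells (platinum-sensitive), whereas the A2780cis cells (platinum-resistant) received 1 μM cisplatin for a passage at regular intervals, to keep them resistant. Total RNA was sequenced after a stranded library preparation. Both lines grew in the same medium, A2780cis cells were seeded more densely than A2780 cells, and after 48 h the medium of these controls was replaced by fresh growth medium for 6 h or 12 h. The seeding density and the intermittent cisplatin cannot be told apart from the line, and each line stands for 1 parental and 1 resistant population. The replicates are labelled as replicates and nothing says that they came from separate cultures, so that p-values measure the spread between these libraries, which may be technical.

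Cisplatin enters cells in part through copper transporters and anion channels, is bound by thiols such as glutathione and metallothioneins, and forms crosslinks between neighbouring bases of DNA. Nucleotide excision repair and the Fanconi and homologous recombination pathways remove these lesions, while mismatch repair proteins recognise them and can relay a death signal to the BCL2 family. Changes in uptake, detoxification, repair, damage recognition and death signalling have all been described as routes to resistance.

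The libraries held between 11077368 and 21366058 counts. Mitochondrial genes took between 5.10% and 6.54% of the counts. Levels are counts scaled to a common library size (CPM) after TMM normalization, which scales each library to the bulk of its genes. They are relative to all RNA of a library, and in bulk samples fewer cells of a type and less RNA per cell cannot be told apart. Of 11 markers of ovarian and Müllerian epithelium, 7 (PAX8, WT1, MUC16, WFDC2, MSLN, EMX2 and KRT7) had at most 3 counts in every library of both lines. Summed over the 11 markers, levels lay between 3.00 and 4.98 CPM in A2780 and between 24.1 and 31.7 CPM in A2780cis, most of it from KRT18 and KRT8 in A2780cis. FOLR1 and EPCAM went the other way. FOLR1 lay between 0.447 and 1.05 CPM in A2780 and between 0 and 0.0959 CPM in A2780cis. EPCAM, with overlap, lay between 0.450 and 1.24 CPM and between 0.108 and 0.461 CPM. Markers of immune cells were at most at 3 counts for 6 of 7 genes, the exception being CD68, and those of endothelial cells for 4 of 4. CD68 shares 85.6% of its exonic bases with other genes, so that its counts may hold their reads. The 6 fibroblast markers COL1A1, COL1A2, DCN, LUM, PDGFRB and FAP summed to between 48.6 and 83.0 CPM in A2780 and to between 1.66 and 3.62 CPM in A2780cis, a sum that leaves out COL3A1, which was higher in A2780cis, and neural markers to between 5.65 and 9.19 CPM and between 3.76 and 5.42 CPM.

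A large part of the transcriptome differed between the untreated lines, and most genes that passed at 1 time passed at the other with the same sign. Of 18496 genes tested, 11887 (64.3%) passed an adjusted p-value of 0.05 (quasi-likelihood test of edgeR, with p-values adjusted after Benjamini and Hochberg) in a model with time as covariate, 6055 higher and 5832 lower in A2780cis. At 6 h alone 9322 genes passed (50.4%), and at 12 h alone 10256 (55.4%). Genes that passed in all 3 tests with the same sign are called here genes that differed at both times. They numbered 7831 (42.3%), with 3795 higher (20.5%) and 4036 lower (21.8%) in A2780cis. Of the 7836 genes that passed at 6 h as well as 12 h, 5 had opposite signs. With a log2 fold change (FC) of at least 1 in addition, 1383 genes (7.48%) were higher and 2067 (11.2%) lower. Without any overlap between the 6 and the 6 libraries stood 6099 genes (33%). Of the 7831 genes that differed at both times, 5801 were without overlap. List members named below were mostly chosen by small p-values, which makes a lack of overlap likely. It is therefore given as a description and not as further support. All log2 FC below are of A2780cis minus A2780 over both times, from 6 libraries a line, unless a time is named. The plot of the 6 h against the 12 h difference shows the genes along the diagonal in both directions.

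**Figure D1:**
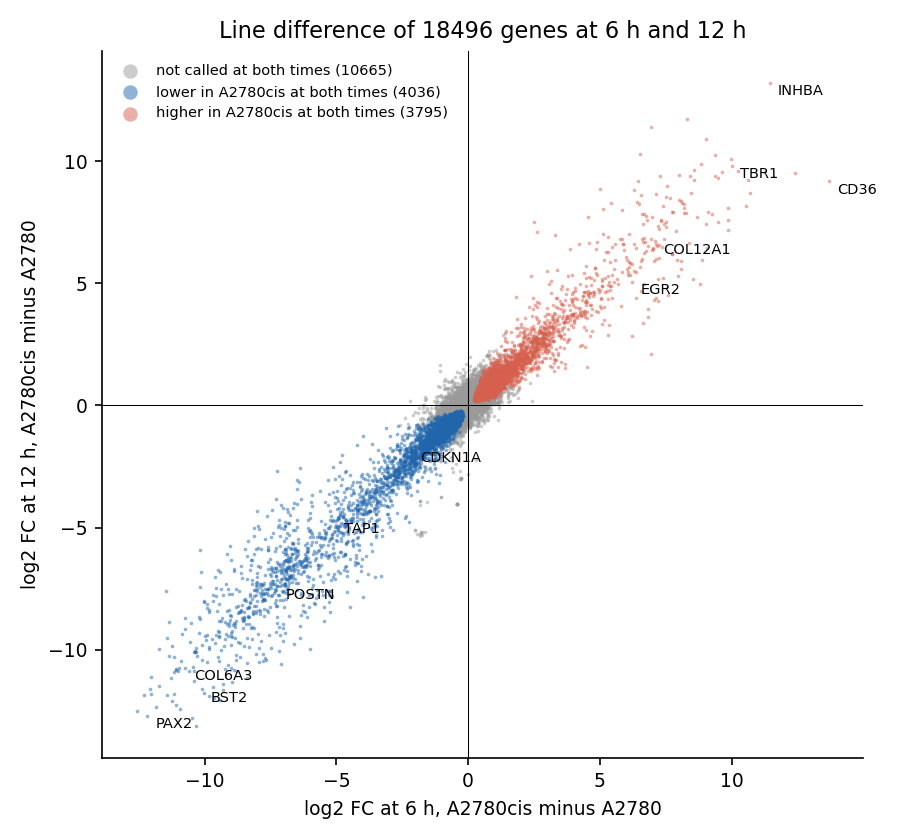
Each point is 1 of 18496 genes, with its log2 FC (A2780cis minus A2780) at 6 h on the x axis and at 12 h on the y axis, and colours mark the 3795 genes higher and the 4036 lower in A2780cis at both times. The points lie along the diagonal, INHBA and CD36 at the upper right end and PAX2 and BST2 at the lower left.

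Interferon-response genes and the genes of antigen presentation were mostly lower in the resistant cells. Interferons signal through transcription factors such as STAT2 and IRF9 to genes with an interferon-stimulated response element in their promoters, and a constant low tone of this pathway keeps the peptide loading machinery for HLA class I expressed in many cell types. Of 37 interferon-response genes tested, 27 were lower and 5 higher in A2780cis at both times (73% and 13.5%, against 21.8% and 20.5% of all genes), with a median log2 FC of -1.82. Of 21 genes of antigen presentation, 15 were lower (71.4%) and 1 higher (4.76%), with a median of -1.76. The median over all genes tested was 0.01.

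The promoters below show the letters of that response element in genes that differed in opposite directions. They were taken from RefSeq (GRCh38.p14) for the genes with the smallest p-values that hold the motif GAAANNGAAA on either strand, here in capitals, within 250 bases before the start of transcription. Annotated exons of any gene were left out, and where the motif itself lies in an exon of a neighbouring transcript (BST2 and PARP9), only 30 bases are given.
TAP1 (lower, chr6:32853817-32853954, minus strand): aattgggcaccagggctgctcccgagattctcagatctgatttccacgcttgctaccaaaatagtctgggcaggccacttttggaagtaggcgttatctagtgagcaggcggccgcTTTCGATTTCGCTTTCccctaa
BST2 (lower, chr19:17405738-17405767, minus strand): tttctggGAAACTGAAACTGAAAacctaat
PARP9 (lower, chr3:122564322-122564351, minus strand): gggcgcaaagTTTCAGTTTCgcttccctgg
IFIT3 (lower, chr10:89327747-89327940, plus strand): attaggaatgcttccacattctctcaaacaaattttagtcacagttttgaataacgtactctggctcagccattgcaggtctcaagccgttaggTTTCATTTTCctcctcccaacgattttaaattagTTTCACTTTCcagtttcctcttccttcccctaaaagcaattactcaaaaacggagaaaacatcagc
HERC5 (higher, chr4:88456869-88457118, plus strand): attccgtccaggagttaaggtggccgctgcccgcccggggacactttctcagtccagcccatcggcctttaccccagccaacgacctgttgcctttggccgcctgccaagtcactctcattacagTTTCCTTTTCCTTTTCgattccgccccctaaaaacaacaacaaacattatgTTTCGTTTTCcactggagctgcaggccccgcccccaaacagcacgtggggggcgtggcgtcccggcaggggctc
IFI6 (higher, chr1:27672213-27672442, minus strand): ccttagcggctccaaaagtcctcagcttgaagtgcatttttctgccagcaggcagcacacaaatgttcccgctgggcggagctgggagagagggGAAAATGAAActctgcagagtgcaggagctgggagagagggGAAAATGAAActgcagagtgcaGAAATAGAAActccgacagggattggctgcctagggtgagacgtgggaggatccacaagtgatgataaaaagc
Among the genes tested with a promoter in the table, 371 of 11464 (3.24%) held the motif. It was found in 18 of 31 interferon-response genes (58.1%) and in 7 of 17 genes of antigen presentation (41.2%). Of the interferon-response genes, 12 of the 23 lower ones and 3 of the 4 higher ones with a promoter held it, so that the motif stood in both directions. Over all genes that differed at both times, 123 of 2711 lower ones (4.54%) and 72 of 2513 higher ones (2.87%) held it. A match describes these letters and not the binding of a factor.

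BST2, which tethers budding virus particles to the cell surface, ranged between 119 and 186 CPM in A2780 (median 162) and between 0 and 0.307 CPM in A2780cis (median 0), with a log2 FC of -10.97 (SE 0.21, edgeR adjusted p = 5.16e-20). All A2780 libraries lay far above the A2780cis libraries, in which the gene was nearly silent. PARP9, an ADP-ribosyltransferase of this response, ranged between 96.5 and 113 CPM in A2780 (median 104) and between 8.66 and 10.1 CPM in A2780cis (median 9.48), with a log2 FC of -3.47 (SE 0.071). OAS2, a sensor of double-stranded RNA, had a median of 18.7 CPM in A2780 and of 0.285 CPM in A2780cis (log2 FC = -6.16, SE 0.16), and IFITM1, a membrane protein that blocks virus entry, of 169 and 6.88 CPM (log2 FC = -4.54, SE 0.12). IFIT3, which binds foreign RNA together with its relatives, had medians of 59.9 and 8.38 CPM (log2 FC = -2.90, SE 0.075). None of these 5 genes overlapped between the lines. Transcription factors of the pathway were among the lower genes too, such as IRF9 (mean 51.8 against 9.64 CPM) and IRF1 (56.2 against 12.9 CPM). In the opposite direction stood HERC5 (2.28 against 11.1 CPM), IFIT2 (29.2 against 72.6 CPM), CMPK2 (0.178 against 1.18 CPM), IFI6 (7.63 against 13.8 CPM) and IFIT5 (84.3 against 122 CPM), of which only IFIT5 overlapped between the lines. These 7 genes were named after their values were seen.

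TAP1, a subunit of the transporter that carries peptides into the endoplasmic reticulum, ranged between 169 and 229 CPM in A2780 (median 197) and between 4.70 and 8.45 CPM in A2780cis (median 6.84), with a log2 FC of -4.85 (SE 0.093, edgeR adjusted p = 4.02e-20). PSMB9, an inducible subunit of the immunoproteasome, ranged between 39.7 and 57.4 CPM in A2780 (median 53.3) and between 0.263 and 0.629 CPM in A2780cis (median 0.457), with a log2 FC of -6.77 (SE 0.15). NLRC5, the transactivator of HLA class I genes, had medians of 76.9 CPM in A2780 and 4.85 CPM in A2780cis (log2 FC = -3.93, SE 0.098). The lines did not overlap in any of them, and the largest gap was that of PSMB9. B2M, the light chain shared by all class I molecules, had medians of 963 and 246 CPM (log2 FC = -2.07, SE 0.08). HLA-B had medians of 279 and 17.3 CPM (log2 FC = -4.02, SE 0.082), although reads of HLA genes can be shared between the near-identical members and differ with the allele, which makes their levels uncertain. The 1 higher member was CD74, the invariant chain of class II (mean 1.92 against 3.49 CPM), named after its values were seen.

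**Figure D2:**
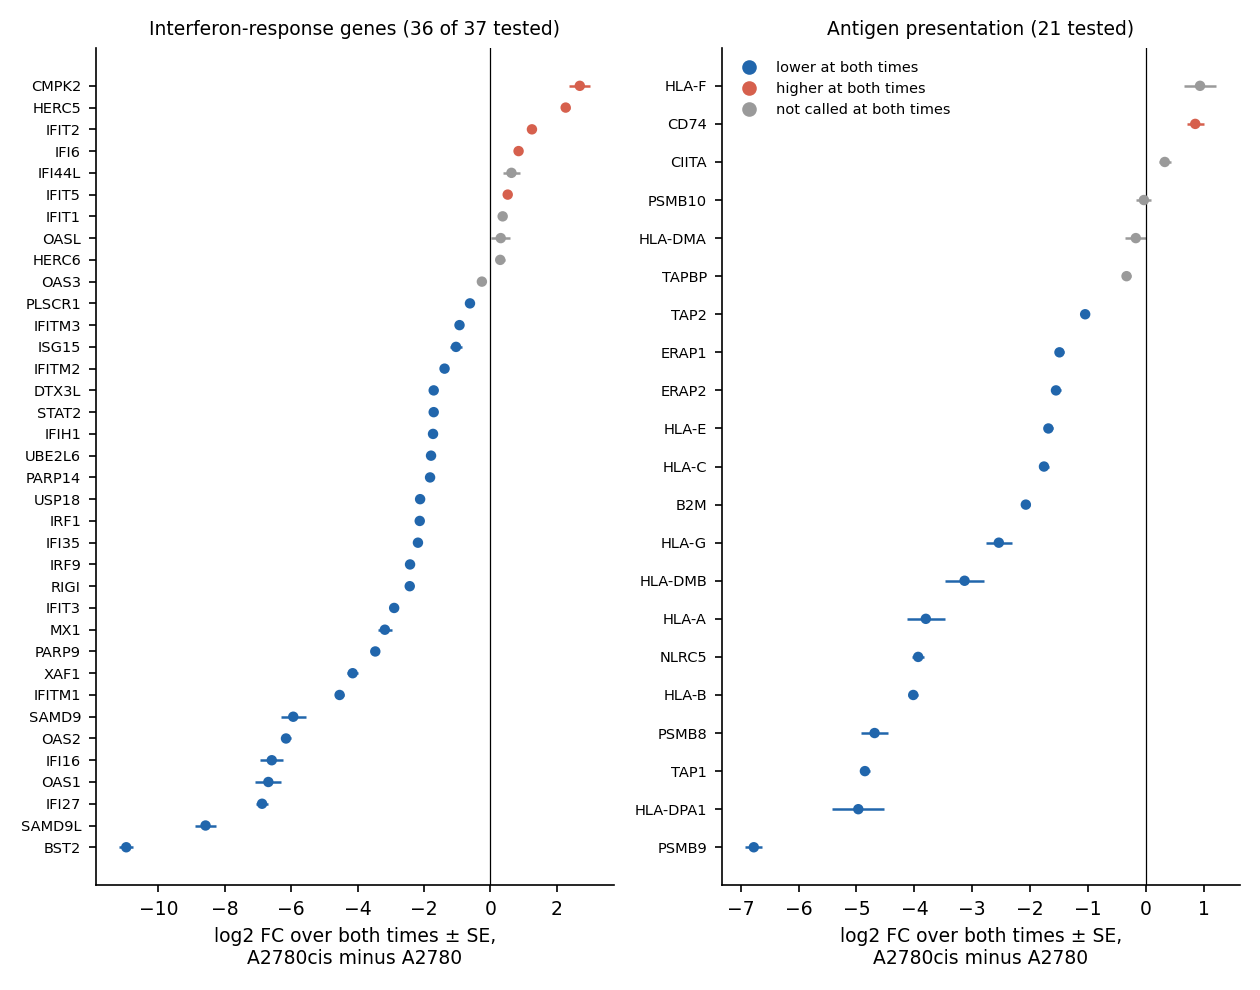
Points are the log2 FC (A2780cis minus A2780, over both times) of 36 of the 37 interferon-response genes (left) and the 21 genes of antigen presentation (right) tested. Bars are ± 1 SE, derived from the F statistic, some shorter than the point. Blue points are lower at both times, and in red are the 5 and 1 higher genes.

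Across the gene lists, the share of genes that differed ranged from none to nearly all. The 13 genes of the mitochondrial genome had a median log2 FC of -0.16, and the lists of G1/S and of mitosis stood below the shares of all genes in both directions. Several lists of cell identity had higher shares: 19 of 20 HOX genes, 9 of 11 fibroblast markers, 18 of 22 collagens, 9 of 10 pluripotency genes and 7 of 8 neural markers differed at both times in 1 direction or the other, against 42.3% of all genes. Before the filter on low counts these lists held 39, 12, 42, 24 and 20 genes. A gene expressed in only 1 line passes that filter and is then likely to be called, while genes silent in both lines drop out. The shares are therefore a description of the genes tested. Among epithelial genes 4 were higher and 3 lower of 13, and among ovarian and Müllerian markers 2 and 2 of 8. High shares were not confined to cell identity. Of 15 aldehyde dehydrogenases 8 were higher and 5 lower, and of 37 interferon-response genes 5 and 27. The plot of the list shares gives each list with at least 8 genes tested beside the shares of all genes.

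**Figure D3:**
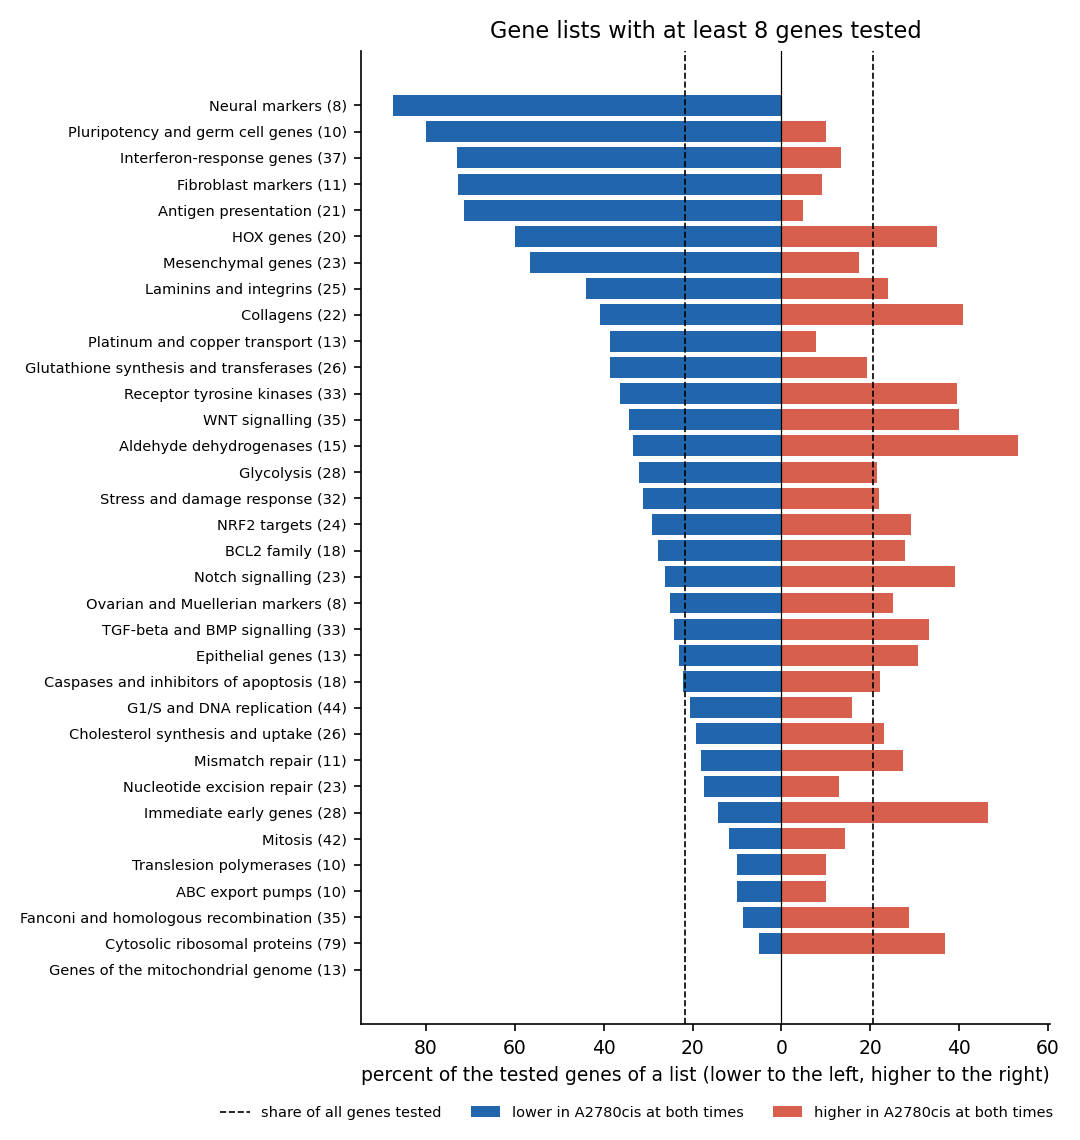
Bars give the percentage of the tested genes of each list (number in parentheses) that were lower (blue, to the left) or higher (red, to the right) in A2780cis at both times, and dashed lines the 21.8% and 20.5% of all genes tested. Neural, pluripotency, interferon-response, fibroblast and antigen presentation genes extend furthest to the left, and aldehyde dehydrogenases and immediate early genes furthest to the right.

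Of 13 genes of platinum and copper transport tested, 5 were lower (38.5%, against 21.8% of all genes) and 1 was higher (7.69%, against 20.5%), with a median log2 FC of -0.42. SLC31A1, the copper transporter CTR1 that also carries cisplatin into cells, ranged between 96.3 and 128 CPM in A2780 (median 111) and between 64.4 and 81.8 CPM in A2780cis (median 68.7), with a log2 FC of -0.64 (SE 0.065, edgeR adjusted p = 3.21e-08). LRRC8C ranged between 10.6 and 14.0 CPM in A2780 (median 12.9) and between 0.758 and 2.45 CPM in A2780cis (median 1.19), with a log2 FC of -3.18 (SE 0.16), LRRC8B between 39.1 and 55.4 (median 45.9) and between 13.4 and 22.7 (median 14.9) CPM (log2 FC = -1.54, SE 0.09) and LRRC8D between 48.5 and 55.6 (median 51.1) and between 26.0 and 39.3 (median 31.4) CPM (log2 FC = -0.71, SE 0.075). The LRRC8 proteins form volume-regulated anion channels, of which those with LRRC8D conduct cisplatin, and in these 4 genes every A2780cis library lay below every A2780 library. LRRC8A, the obligatory subunit of the channel, did not pass (log2 FC = 0.20, edgeR adjusted p = 0.176). CCS, the copper chaperone of superoxide dismutase, was lower with overlapping libraries (log2 FC = -0.60, SE 0.10). The copper-exporting ATPases ATP7A (log2 FC = -0.22) and ATP7B (log2 FC = -0.42) and the chaperones ATOX1 (log2 FC = -0.12) and COX17 (log2 FC = -0.42) did not differ at both times, nor did SLC31A2 (log2 FC = 0.29) or TMEM205 (log2 FC = 0.23). SLC47A1, the MATE1 exporter of organic cations and platinum compounds, was the 1 higher member and ranged between 12.2 and 14.7 CPM in A2780 (median 13) and between 29.7 and 36.5 CPM in A2780cis (median 30.8), with a log2 FC of 1.23 (SE 0.081), with all A2780cis libraries above all A2780 libraries. Exonic bases of SLC31A2 are shared to 64% with a gene on the other strand, and since the strand setting of the counting was not stated, its value may hold reads of both. Among 10 ABC export pumps, ABCC1 (MRP1) was higher (log2 FC = 0.73, SE 0.099) and ABCC6 lower (log2 FC = -1.92, SE 0.11). Of 3 metallothioneins tested, MT1F was lower, with medians of 1.32 and 0.0708 CPM (log2 FC = -3.66, SE 0.41), while MT1X (log2 FC = 0.061) and MT2A (log2 FC = -0.39) did not differ at both times.

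Of 26 glutathione genes tested, 10 were lower (38.5%, against 21.8% of all genes) and 5 higher (19.2%, against 20.5%), and without a filter on low counts 8 were lower and 7 higher. SLC7A11 and SLC3A2, the 2 chains of the cystine importer that feeds glutathione synthesis, were both lower, with medians of 48.1 against 23.8 CPM (log2 FC = -1.0, SE 0.082) and of 180.1 against 97.6 CPM (log2 FC = -0.85, SE 0.061). GCLM, the modifier subunit of glutamate-cysteine ligase, had medians of 42.5 and 20.4 CPM (log2 FC = -1.06, SE 0.084), and its catalytic partner GCLC, named after its values were seen, means of 30.8 and 44.8 CPM (log2 FC = 0.53). The subunits of the ligase thus differed in opposite directions. CHAC1, which degrades glutathione, and GPX8, a peroxidase of the endoplasmic reticulum, were lower (log2 FC = -2.0 and log2 FC = -1.48). Targets of NRF2, the regulator of the antioxidant response, were divided evenly, 7 higher and 7 lower of 24 (29.2% each). ME1, the cytosolic malic enzyme that makes NADPH, ranged from 15.7 to 21.7 CPM in A2780 and had no count in any A2780cis library, which makes it at least 604-fold lower (from the limit of 3 counts over the 6 libraries). NQO1, a quinone reductase, ranged between 188 and 254 CPM in A2780 (median 206) and between 78.6 and 125 CPM in A2780cis (median 97.7), with a log2 FC of -1.12 (SE 0.068). In the other direction AKR1C2, an aldo-keto reductase, ranged between 0.398 and 1.08 CPM in A2780 (median 0.614) and between 7.42 and 11.2 CPM in A2780cis (median 8.13), with a log2 FC of 3.69 (SE 0.16), OSGIN1 had medians of 0.266 and 5.62 CPM (log2 FC = 4.53, SE 0.26) and SRXN1, the sulfiredoxin, of 79.9 and 167 CPM (log2 FC = 1.143, SE 0.068). SRXN1 shares 90.7% of its exonic bases with another gene, and AKR1C members are similar enough to share reads.

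Of 11 mismatch repair genes, 3 were higher (27.3%) and 2 lower (18.2%), shares near the 20.5% and 21.8% of all genes. MSH6, a subunit of the complex that recognises mismatches, ranged between 295 and 342 CPM in A2780 (median 313) and between 168 and 233 CPM in A2780cis (median 188), with a log2 FC of -0.72 (SE 0.068), without overlap between the lines. MLH3 (log2 FC = 0.91, SE 0.078) and PCNA (log2 FC = 0.73, SE 0.069), the sliding clamp, were higher without overlap. PMS1 (log2 FC = -0.075), PMS2 (log2 FC = -0.13), MSH3 (log2 FC = -0.037), EXO1 (log2 FC = 0.19), RFC1 (log2 FC = -0.16) and LIG1 (log2 FC = 0.26) did not differ at both times.

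Nucleotide excision repair had 3 genes higher and 4 lower of 23 (13% and 17.4%, and 5 higher without a filter on low counts). ERCC2, the XPD helicase of TFIIH, ranged between 31.7 and 57.6 CPM in A2780 (median 48.5) and between 74.3 and 134 CPM in A2780cis (median 91.6), with a log2 FC of 1.11 (SE 0.085), the largest difference of the list. ERCC5, the XPG nuclease that cuts 3′ of the lesion, ranged between 22.2 and 31.8 CPM in A2780 (median 27.7) and between 14.6 and 20 CPM in A2780cis (median 16.4), with a log2 FC of -0.68 (SE 0.098). Both stood without overlap between the lines. CETN2 (log2 FC = 0.43) and GTF2H4 (log2 FC = 0.44) were higher, and GTF2H2 (log2 FC = -0.39), GTF2H3 (log2 FC = -0.35) and GTF2H5 (log2 FC = -0.52) lower, all with overlap, and GTF2H2 shares reads with near-identical copies. The call of GTF2H3 was lost without a filter on low counts. ERCC1, the nuclease partner often studied in platinum response, had medians of 73.7 and 83.7 CPM and did not differ at both times (log2 FC = 0.26, SE 0.072). The other 15 members, which include XPA (log2 FC = 0.23), XPC (log2 FC = -0.19), ERCC4 (log2 FC = 0.24), ERCC6 (log2 FC = -0.53), ERCC8 (log2 FC = 0.35), ERCC3 (log2 FC = -0.0043), DDB1 (log2 FC = 0.022), DDB2 (log2 FC = -0.26), RAD23B (log2 FC = -0.15), XAB2 (log2 FC = 0.16), UVSSA (log2 FC = -0.022), MMS19 (log2 FC = -0.0099) and GTF2H1 (log2 FC = -0.038), did not either. With size factors as in DESeq2, ERCC1 (higher) and ERCC6 (lower) did pass, and 4 genes of the excision repair list were higher and 5 lower. Of 35 Fanconi and homologous recombination genes, 10 were higher and 3 lower (28.6% and 8.57%, against 20.5% and 21.8% of all genes). BRCA2, a mediator of homologous recombination, ranged between 41.8 and 81.6 CPM in A2780 (median 64.0) and between 24.7 and 33.0 CPM in A2780cis (median 28.7), with a log2 FC of -1.12 (SE 0.11, edgeR adjusted p = 1.16e-08), and the lines did not overlap. NBN, a subunit of the MRN complex that senses double-strand breaks, was higher (log2 FC = 1.05, SE 0.073) and its partner MRE11 lower (log2 FC = -0.66, SE 0.075). FANCC was higher (log2 FC = 0.68, SE 0.063) and FANCL, the ubiquitin ligase of the Fanconi core complex, lower (log2 FC = -0.55, SE 0.082). Of 10 translesion polymerases, REV3L, the catalytic subunit of polymerase zeta, was higher (log2 FC = 0.52, SE 0.089) and POLI lower (log2 FC = -0.32, SE 0.08). Without a filter on low counts POLI did not pass, and 2 genes of the list were higher and 0 lower. With scaling by library size alone 2 were lower. BRCA2 and ERCC5 lie on chromosome 13 and NBN on chromosome 8, which are described below.

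A list of stress and damage response genes was divided, with 7 higher and 10 lower of 32 (21.9% and 31.2%, against 20.5% and 21.8% of all genes). CDKN1A (p21), which arrests the cell cycle, ranged between 38.7 and 56.4 CPM in A2780 (median 43.8) and between 10.5 and 13.3 CPM in A2780cis (median 11.6), with a log2 FC of -1.97 (SE 0.10, edgeR adjusted p = 4.74e-13). TP53INP1, which promotes cell death under stress, ranged between 11 and 11.9 CPM in A2780 (median 11.2) and between 0.325 and 0.959 CPM in A2780cis (median 0.816), with a log2 FC of -4.06 (SE 0.16). SESN2 (log2 FC = -1.73, SE 0.084) and SESN1 (log2 FC = -1.11, SE 0.091), which restrain mTORC1 under stress, were lower too, as were MDM4 (log2 FC = -0.86), SPATA18 (log2 FC = -1.23), GADD45A (log2 FC = -0.89), EDA2R (log2 FC = -0.54) and BAX (log2 FC = -0.69). Except for BAX, none of these overlapped between the lines. PERP, a membrane protein of desmosomes, was almost absent from A2780 and ranged between 0 and 0.180 CPM in A2780 (median 0.138) and between 60.9 and 87.5 CPM in A2780cis (median 71.1), with a log2 FC of 9.38 (SE 0.18). FAS, the death receptor, ranged between 7.37 and 15.6 CPM in A2780 (median 12.7) and between 29.6 and 49.9 CPM in A2780cis (median 42.2), with a log2 FC of 1.73 (SE 0.096), and PMAIP1 (NOXA), a BH3-only protein, between 1.2 and 2.10 (median 1.71) and between 6.81 and 9.10 (median 8.11) CPM (log2 FC = 2.30, SE 0.12). PLK2 was higher without overlap (log2 FC = 1.44, SE 0.094), while FDXR (log2 FC = 0.78), RRM2B (log2 FC = 0.32) and TP53I3 (log2 FC = 0.31) were higher with overlap. FDXR and RRM2B did not pass with scaling by library size alone, nor EDA2R without a filter on low counts. Without lncRNA and rRNA genes in the table, 4 instead of 7 genes of this list were higher. With size factors as in DESeq2, 9 were higher and 11 lower, and PPM1D, TIGAR and CCNG1, given below, passed there. MDM2, a ubiquitin ligase, had medians of 115 and 125 CPM and did not differ at both times (log2 FC = 0.22). The same held for PPM1D (log2 FC = 0.43), TIGAR (log2 FC = 0.29), AEN (log2 FC = 0.042), POLH (log2 FC = -0.01), PLK3 (log2 FC = 0.075), RPS27L (log2 FC = -0.046), TNFRSF10B (log2 FC = 0.0096), TNFRSF10C (log2 FC = 0.99), ZMAT3 (log2 FC = -0.20), BTG2 (log2 FC = -0.34) and CCNG1 (log2 FC = -0.41).

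In the BCL2 family, 5 genes were higher and 5 lower of 18 (27.8% each, against 20.5% and 21.8% of all genes). Of the guardians against cell death, BCL2 had medians of 9.21 and 4.58 CPM (log2 FC = -0.90, SE 0.13), MCL1 of 436 and 300.2 CPM (log2 FC = -0.53, SE 0.071) and BCL2L2 (BCL-w) of 49.8 and 76.3 CPM (log2 FC = 0.64, SE 0.064). BCL2 and MCL1 were thus lower and BCL2L2 higher, each without overlap. BCL2L1 (BCL-xL) did not differ at both times (log2 FC = 0.25, SE 0.089). Of the effectors, BAX was lower (log2 FC = -0.69, SE 0.10), BOK higher with overlap (log2 FC = 1.10, SE 0.14), and BAK1 did not differ at both times (log2 FC = -0.22). BMF was lower (log2 FC = -2.43, SE 0.28), as was BCL2L13 (log2 FC = -0.58), while BID (log2 FC = 0.56) and BNIP3 (log2 FC = 0.33) were higher. BAD (log2 FC = 0.19), BBC3 (log2 FC = -0.60), BCL2L11 (log2 FC = 0.062), BCL2L12 (log2 FC = 0.22), BNIP3L (log2 FC = -0.25) and HRK (log2 FC = -0.49) did not differ at both times. Of 18 caspases and inhibitors of apoptosis, 4 were higher and 4 lower (22.2% each, near the shares of all genes). CASP1 and CASP4, the inflammatory caspases, ranged from 25.8 to 40.6 and from 9.76 to 16.4 CPM in A2780 and did not exceed 0.192 and 0.288 CPM in A2780cis (log2 FC = -9.39, SE 0.24 and log2 FC = -6.40, SE 0.23). Both neighbour each other on chromosome 11, where BIRC2 (log2 FC = 0.87, SE 0.078) and BIRC3 (log2 FC = 1.59, SE 0.12), inhibitors of apoptosis, were higher. CASP10, an initiator caspase of death receptors, was higher as well (log2 FC = 1.97, SE 0.15).

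Cell cycle genes held members of both directions. Of 42 mitotic genes 6 were higher (14.3%) and 5 lower (11.9%), against 20.5% and 21.8% of all genes. The lower ones were 8 without A2780 6 h replicate 3 and 9 without A2780cis 6 h replicate 3. Of 44 genes of G1/S and DNA replication 7 were higher (15.9%) and 9 lower (20.5%). CDK6, which drives entry into the cycle, was nearly absent from A2780cis and ranged between 6.03 and 8.05 CPM in A2780 (median 6.97) and between 0 and 0.105 CPM in A2780cis (median 0.050), with a log2 FC of -6.87 (SE 0.24). RB1, the brake it phosphorylates, was also lower (log2 FC = -1.08, SE 0.086), and CCNE2 (log2 FC = 1.28, SE 0.082) and E2F2 (log2 FC = 1.2, SE 0.081) were higher. In the list of CDK inhibitors, CDKN1B (p27) was higher (log2 FC = 0.43), as was CDKN3, a phosphatase (log2 FC = 0.84). CDKN2C was lower (log2 FC = -0.52, not past the threshold without a filter on low counts), and CDKN2A (log2 FC = -0.67) and CDKN2D (log2 FC = 0.21) did not differ at both times. CDC25B, a phosphatase that starts mitosis, showed the largest difference of the mitotic genes named (log2 FC = 1.72, SE 0.087), followed by CENPF (log2 FC = -0.83), CENPE (log2 FC = -0.82), CDCA8 (log2 FC = -0.51) and KIF20A (log2 FC = 0.49).

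**Figure D4:**
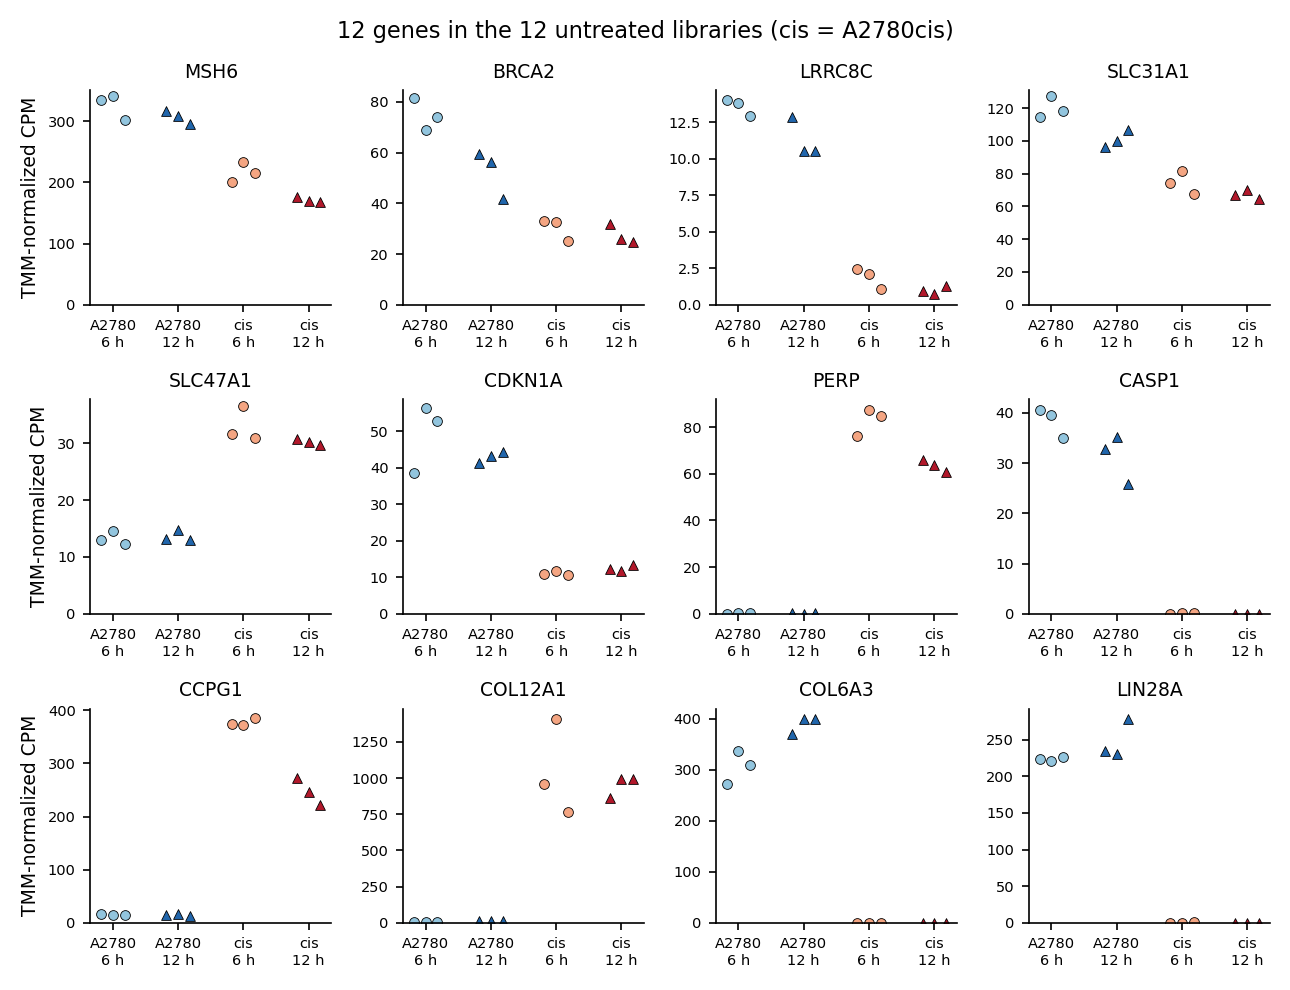
TMM-normalized CPM (y axis, from 0) of 12 genes in each of the 12 untreated libraries, by line and time, with 3 points a group for replicates 1 to 3 from left to right. In each panel the 6 A2780 libraries and the 6 A2780cis libraries stand apart, at 6 h (circles) as at 12 h (triangles). The 12 genes were picked from those named in the text and do not stand for all genes.

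The largest differences were of genes present in 1 line and nearly absent from the other. By the rule for named genes, the 12 largest increases were those of INHBA, CD36, BACE2, JAKMIP1, TBR1, PTGER3, ST3GAL1, CHST15, GALNT14, RUNX3, PDLIM1 and PERP. INHBA, the subunit of activin A, had 1 count over the 6 A2780 libraries and ranged from 74.3 to 106 CPM in A2780cis, a ratio of 7635 [95% interval 1369.9 to 301590.0] (intervals of such ratios are exact and cover counting error only). CD36, a receptor for fatty acids, ranged between 0 and 0.199 CPM in A2780 (median 0) and between 64.0 and 112 CPM in A2780cis (median 89.4), with a log2 FC of 10.14 (SE 0.22), and TBR1, a transcription factor of the developing cortex, between 0 and 0.209 (median 0.108) and between 98.0 and 139 (median 112) CPM (log2 FC = 9.89, SE 0.19). JAKMIP1 had no count in A2780 and a median of 8.55 CPM in A2780cis, at least 259-fold higher. The protease BACE2 (1373 [95% interval 469 to 6660.2]), the sialyltransferase ST3GAL1 (1069.6 [95% interval 366 to 5189]), the transcription factor RUNX3 (959 [95% interval 328 to 4655]), the sulfotransferase CHST15 (1499 [95% interval 269 to 59231]) and PDLIM1 (829 [95% interval 283 to 4022]) had 1 to 3 counts in all of A2780. Medians in A2780cis were 61.4 CPM for PTGER3, a prostaglandin E2 receptor, and 57.4 CPM for GALNT14, which starts O-glycosylation, against 0.0666 and 0.0566 CPM in A2780.

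Among the 12 largest decreases were those of PAX2, UCP2, ALPK2, ESRRG, MAB21L1, DLX5, ARHGAP28, LAYN, DLX6 and COL1A2. PAX2, a factor of kidney and Müllerian duct development, ranged from 33.4 to 61.6 CPM in A2780, without a count in A2780cis (at least 1502-fold lower). The same pattern was seen for UCP2, a mitochondrial carrier (at least 1178-fold), ALPK2 (at least 1085-fold), the nuclear receptor ESRRG (at least 979-fold) and LAYN (at least 784-fold). MAB21L1 (log2 FC = -11.74, SE 0.16) and ARHGAP28 (log2 FC = -11.65, SE 0.18) had traces in A2780cis. DLX5 and DLX6, neighbouring homeobox genes of chromosome 7, had 1 count each over the 6 A2780cis libraries, with ratios of 5817 [95% interval 1044 to 229783] and 5195 [95% interval 932 to 205228].

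With at most 3 counts in each library of 1 line and a mean of at least 1 CPM in the other, 116 genes were at the floor in A2780 and 494 in A2780cis. Of these, 12 and 156 had no count at all, and 86 and 339 were protein-coding. All 116 and 490 of the 494 differed at both times, which the choice of such genes makes likely. The 8 with the highest levels in the other line were INHBA, PERP, PTGER3, GALNT14, PTPN3, BACE2, TDO2 and ST3GAL1 for A2780, and MAB21L1, ZPLD1, HDAC9, EYA4, OTOA, FIGN, TRPC4 and MAB21L2 for A2780cis. PTPN3, a tyrosine phosphatase, had medians of 0.174 and 47.0 CPM and TDO2, which opens the ring of tryptophan, of 0.0349 and 43.8 CPM. HDAC9, a histone deacetylase, had medians of 83.4 and 0.0384 CPM, the transcriptional coactivator EYA4 of 77.9 and 0.0271 CPM, and ZPLD1 of 126 and 0.0821 CPM. Exonic bases of MAB21L2 are shared to 58.6% with LRBA on the other strand. The 250 bases before the start of transcription held a median of 10 CG dinucleotides in the 298 genes at the floor in A2780cis with a promoter, 22 in the 66 at the floor in A2780 and 21 over all 11464, given as a description.

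Genes of the mesenchyme and of the extracellular matrix differed in both directions. Of 23 mesenchymal genes tested, 13 were lower (56.5%, against 21.8% of all genes) and 4 higher (17.4%, against 20.5%), with a median log2 FC of -0.61. Of 22 collagens, 9 were lower and 9 higher (40.9% each). TWIST1, a driver of the mesenchymal state, ranged between 38.3 and 61.0 CPM in A2780 (median 45.5) and between 0 and 0.175 CPM in A2780cis (median 0.0842), with a log2 FC of -9.23 (SE 0.19). PRRX1, with a similar role, had 1 count over all A2780cis libraries and medians of 25.3 and 0 CPM. CDH2 (N-cadherin) ranged between 40.2 and 52.9 CPM in A2780 (median 45.8) and between 3.66 and 7.10 CPM in A2780cis (median 4.66), with a log2 FC of -3.27 (SE 0.12), and the smooth muscle genes ACTA2 (log2 FC = -4.23, SE 0.083) and TAGLN (log2 FC = -3.05, SE 0.093) were lower as well. No library of A2780cis reached the level of an A2780 library in these 5 genes. ACTA2 lies against FAS, and 36% of its exonic bases are shared with genes of the other strand, while TAGLN shares 47.8% with other genes, 34.1% on the other strand. Among 11 fibroblast markers tested, 8 were lower (72.7%) and 1 higher (9.09%). POSTN (periostin) ranged between 549 and 1056 CPM in A2780 (median 860.1) and between 3.85 and 7.06 CPM in A2780cis (median 5.01), with a log2 FC of -7.32 (SE 0.11, edgeR adjusted p = 1.59e-21) and PDGFRA, a receptor of platelet-derived growth factor, between 149 and 185 (median 164) and between 2.15 and 3.76 (median 2.95) CPM (log2 FC = -5.84, SE 0.092). COL6A3 ranged between 272 and 400.0 CPM in A2780 (median 353) and between 0.0768 and 0.366 CPM in A2780cis (median 0.169), with a log2 FC of -10.74 (SE 0.15) and COL1A2, an alpha chain of type I collagen, between 27.2 and 58.6 (median 46.2) and between 0 and 0.0542 (median 0) CPM. In contrast, COL12A1 ranged between 7.18 and 8.99 CPM in A2780 (median 8.83) and between 766.2 and 1411 CPM in A2780cis (median 977), with a log2 FC of 6.89 (SE 0.15), COL11A1 between 34.9 and 42.1 (median 38.7) and between 1139.8 and 1438 (median 1199) CPM (log2 FC = 4.99, SE 0.082) and COL3A1 between 188 and 290.0 (median 251) and between 1759 and 2075 (median 1887) CPM (log2 FC = 2.97, SE 0.087). None of these collagens overlapped between the lines. Integrins and laminins showed 11 genes lower (44%) and 6 higher (24%) of 25. ITGA1, a collagen receptor, and LAMA1, the alpha chain of the first laminin, were nearly absent from A2780cis (log2 FC = -9.11, SE 0.20 and log2 FC = -8.89, SE 0.18), as was ITGA8 (5.57 against 0 CPM), and ITGA6, a laminin receptor, was higher (log2 FC = 2.88, SE 0.10), as was LAMC3 (log2 FC = 4.41, SE 0.19). Of 13 epithelial genes tested, 4 were higher (30.8%) and 3 lower (23.1%). The keratins KRT18 (log2 FC = 4.06, SE 0.14) and KRT8 (log2 FC = 2.34, SE 0.19) were higher without overlap, whereas ELF3, CD24 and CLDN6, at most 2.94, 1.75 and 1.12 CPM in A2780, were lower.

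Genes of embryonic and positional identity differed in nearly all members tested. Of 20 HOX genes, 12 were lower (60%, against 21.8% of all genes) and 7 higher (35%, against 20.5%). HOX genes are arranged in clusters whose order follows the body axis, and their mixture varies with the position of a tissue along it. The paper describes the lines as isogenic, and why their HOX genes differed was not tested. In the HOXB cluster, HOXB9 ranged between 24.9 and 34.8 CPM in A2780 (median 28.3) and between 0.596 and 1.25 CPM in A2780cis (median 0.756), with a log2 FC of -5.17 (SE 0.14), and HOXB5 (log2 FC = -2.44), HOXB6 (log2 FC = -2.38) and HOXB8 (log2 FC = -3.82) were lower too. HOXB13, at the far end of the same cluster, had 1 count over the A2780 libraries and ranged from 2.61 to 6.34 CPM in A2780cis, a ratio of 428 [95% interval 76.4 to 16944]. The 7 higher genes were HOXB13 and members of the HOXC cluster, such as HOXC10 (mean 37.8 against 103 CPM), named after its values were seen. Of 10 pluripotency and germ cell genes tested, 8 were lower (80%) and 1, ALDH1A1, higher (10%). LIN28A, an RNA-binding protein that blocks let-7 maturation, ranged between 220.4 and 279 CPM in A2780 (median 228) and between 0.0458 and 0.461 CPM in A2780cis (median 0.115), with a log2 FC of -10.56 (SE 0.18, edgeR adjusted p = 1.01e-20), and its relative LIN28B between 195 and 337 (median 267) and between 45.1 and 69.7 (median 57.7) CPM (log2 FC = -2.21, SE 0.078). L1TD1 had medians of 10.2 and 0 CPM, with 2 counts over all A2780cis libraries. DNMT3B, a de novo DNA methyltransferase (log2 FC = -1.17, SE 0.072), and LGR5, a stem cell receptor (log2 FC = -3.81, SE 0.24), were lower too. Of 8 neural genes tested, 7 were lower, among them the intermediate filament genes NES (log2 FC = -2.24, SE 0.075) and NEFL (log2 FC = -5.12, SE 0.15), the microtubule protein MAP2 (log2 FC = -4.77, SE 0.17) and the factor PAX6 (log2 FC = -3.06, SE 0.13). In each of these genes all A2780cis libraries lay below all A2780 libraries.

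Signalling lists moved in both directions. Of 35 WNT genes tested, 14 were higher (40%, against 20.5% of all genes) and 12 lower (34.3%, against 21.8%). Secreted inhibitors of the pathway stood among the higher genes: WIF1 ranged between 17.2 and 21.2 CPM in A2780 (median 19.1) and between 95.6 and 119 CPM in A2780cis (median 102), with a log2 FC of 2.43 (SE 0.075), DKK2 between 6.32 and 10.5 (median 9.08) and between 39.6 and 62.7 (median 50.8) CPM (log2 FC = 2.49, SE 0.092), and NOTUM, which strips the lipid from WNT proteins, had medians of 0.251 and 3.42 CPM (log2 FC = 4.36, SE 0.25). LGR4, a receptor that strengthens WNT signals, ranged between 152 and 224 CPM in A2780 (median 176) and between 7.70 and 14.2 CPM in A2780cis (median 9.61), with a log2 FC of -4.14 (SE 0.085), and the receptor FZD3 was lower (log2 FC = -2.10, SE 0.099). None overlapped between the lines. In the TGF-beta and BMP list 11 of 33 were higher (33.3%) and 8 lower (24.2%). Beside INHBA, BMP7 (log2 FC = 2.23, SE 0.11) and TGFB3 (log2 FC = 1.58, SE 0.097) were higher, and INHBE (log2 FC = -2.62, SE 0.10) and the receptor ACVR2B (log2 FC = -1.82, SE 0.099) lower. In the Notch list 9 of 23 were higher (39.1%) and 6 lower (26.1%). The ligand JAG1 (log2 FC = -3.46, SE 0.18) and the target HES1 (log2 FC = -1.44, SE 0.13) were lower. MAML3, a coactivator, and DTX3 were nearly absent from A2780cis (15.3 against 0 and 9.83 against 0 CPM), and DTX4 was higher (log2 FC = 2.27, SE 0.09). Of 33 receptor tyrosine kinases, 13 were higher (39.4%) and 12 lower (36.4%). EPHA3 ranged between 105 and 177 CPM in A2780 (median 138) and between 0.137 and 0.480 CPM in A2780cis (median 0.224), with a log2 FC of -9.11 (SE 0.13) and EPHA7 between 88.6 and 152 (median 125) and between 0.0524 and 0.384 (median 0.133) CPM (log2 FC = -9.48, SE 0.17), whereas EPHB2 (log2 FC = 3.79, SE 0.17) and FGFR2, with 1 count over the A2780 libraries and a median of 3.64 CPM in A2780cis, were higher.

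Immediate early genes, which growth factors and stress induce within minutes, were higher for 13 of 28 tested (46.4%, against 20.5% of all genes) and lower for 4 (14.3%, against 21.8%). EGR2 ranged between 0.180 and 0.597 CPM in A2780 (median 0.266) and between 12.7 and 21.7 CPM in A2780cis (median 15.7), with a log2 FC of 5.52 (SE 0.19). DUSP6, a phosphatase that limits ERK signalling and is itself induced by it, ranged between 157 and 179 CPM in A2780 (median 169) and between 297 and 429.6 CPM in A2780cis (median 352), with a log2 FC of 1.07 (SE 0.088), and DUSP2 between 3.42 and 7.02 (median 6.50) and between 15.1 and 24.2 (median 20.3) CPM (log2 FC = 1.77, SE 0.12). IER5 was higher (log2 FC = 1.02, SE 0.081) and ATF3, a stress-induced factor, lower (log2 FC = -2.84, SE 0.16). Each of the 5 stood without overlap. Cytosolic ribosomal protein genes were higher for 29 of 79 (36.7%) and lower for 4 (5.06%), with small differences (median log2 FC 0.33). RPL8 (log2 FC = 1.00, SE 0.099), RPL30 (log2 FC = 0.91, SE 0.094) and RPS20 (log2 FC = 0.76, SE 0.086), all on chromosome 8, and RPS2 (log2 FC = 0.77, SE 0.088) were higher, and RPS7 lower (log2 FC = -0.78, SE 0.09), these 5 having the smallest p-values of the list. This count rested on single libraries: with 1 library left out it fell to 11 (without A2780cis 6 h replicate 3), 12 (without A2780cis 6 h replicate 1), 14 (without A2780 6 h replicate 3), 18 (without A2780cis 12 h replicate 1) and 19 (without A2780 6 h replicate 1), and without lncRNA and rRNA genes in the table to 19. Without a filter on low counts it was 44. Ribosomal protein genes also share reads with many processed pseudogenes, so that their counts are uncertain.

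Of 15 aldehyde dehydrogenases tested, 8 were higher (53.3%, against 20.5% of all genes) and 5 lower (33.3%, against 21.8%). ALDH1A3 ranged between 0.0900 and 0.349 CPM in A2780 (median 0.171) and between 13.1 and 15.9 CPM in A2780cis (median 14.2), with a log2 FC of 6.04 (SE 0.18), ALDH1A1 between 2.46 and 3.41 (median 2.82) and between 7.23 and 15.2 (median 11.8) CPM (log2 FC = 1.97, SE 0.13) and ALDH1A2 between 7.09 and 8.82 (median 7.70) and between 0 and 0.175 (median 0.117) CPM (log2 FC = -6.22, SE 0.23). These 3 enzymes make retinoic acid, and the first of them stood at trace levels in A2780 and the last in A2780cis. ALDH5A1 (log2 FC = 1.32, SE 0.079) and ALDH3B1 (log2 FC = 2.56, SE 0.21) were higher too. Glycolysis genes were higher for 6 (21.4%) and lower for 9 (32.1%) of 28. PFKP, a phosphofructokinase (log2 FC = 2.69, SE 0.091), and ALDOC (log2 FC = 1.21, SE 0.096) were higher, and ENO2 (log2 FC = -4.61, SE 0.14) and the lactate transporters SLC16A3 (log2 FC = -4.46, SE 0.22) and SLC16A1 (log2 FC = -1.04, SE 0.07) lower. Of 26 genes of cholesterol synthesis and uptake, 6 were higher (23.1%) and 5 lower (19.2%), near the shares of all genes. INSIG2, which retains the SREBP complex in the endoplasmic reticulum, ranged between 46.4 and 77.7 CPM in A2780 (median 59.4) and between 4.25 and 6.30 CPM in A2780cis (median 5.04), with a log2 FC of -3.53 (SE 0.10). HMGCS1 was lower (log2 FC = -0.78, SE 0.076), and STARD4 (log2 FC = 1.00, SE 0.076), SQLE (log2 FC = 0.72, SE 0.065) and SC5D (log2 FC = 0.83, SE 0.079) were higher.

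The differences were not evenly spread over the genome. Coordinates are those of GRCh38 (GENCODE release 44), and the background for protein-coding genes on chromosomes 1 to 22 and X was 23.9% higher and 23% lower of 13270. On chromosome 13, 157 of 206 genes were lower (76.2%) and 14 higher (6.8%), with a median log2 FC of -0.85. Each A2780cis library alone gave a median between -0.91 and -0.73 against the mean of A2780. Among the genes lower there were BRCA2 and RB1. On chromosome 8, 207 of 450 genes were higher (46%) and 83 lower (18.4%), with a median of 0.37 (0.33 with scaling by library size alone), and on chromosome 20, 119 of 355 were higher (33.5%), with a median of 0.21. The medians of the other chromosomes lay between -0.04 and 0.13. DNA was not measured, and the part of gene dosage in these medians was not tested.

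**Figure D5:**
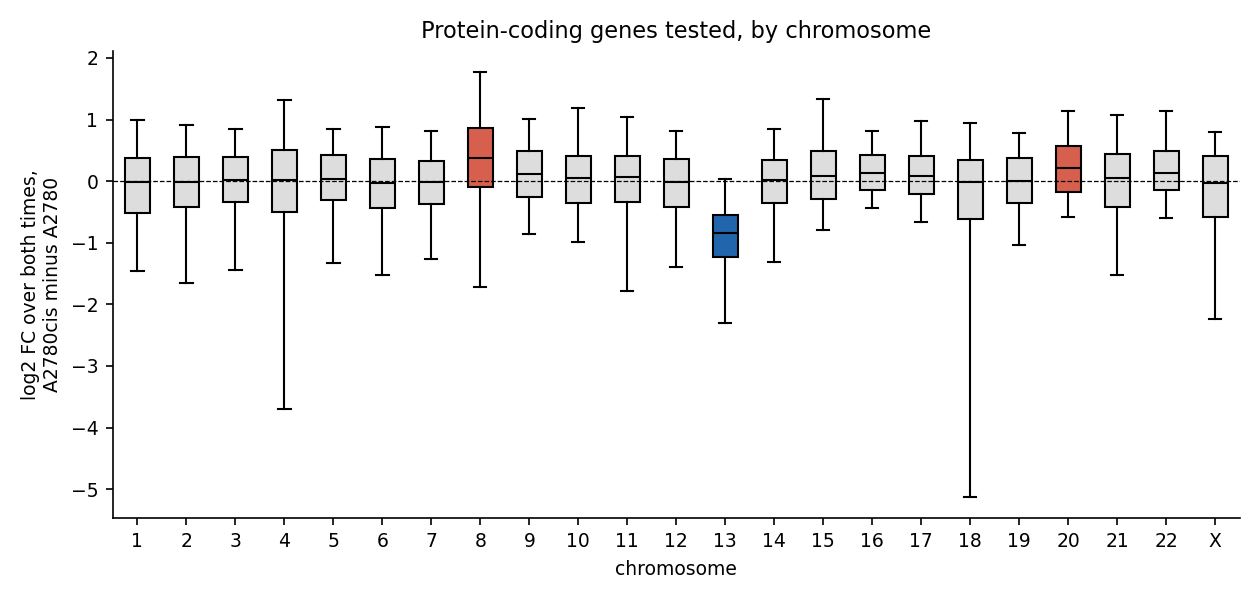
Log2 FC over both times (y axis) of the protein-coding genes tested on each chromosome, with boxes from the lower to the upper quartile, a line at the median and whiskers from the 10th to the 90th percentile. Chromosome 13 (blue) lies below the others with a median of -0.85, and chromosomes 8 and 20 (red) have medians of 0.37 and 0.21.

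Within chromosomes, neighbouring genes differed together. Windows of 25 consecutive protein-coding genes had a median log2 FC between -0.46 and 0.37 for the middle 90% of 12718 windows. The highest window lay on chromosome 8 from 80628451 to 90791632, with a median of 1.83 and 20 genes higher and 2 lower. It held FABP5, a fatty acid carrier that ranged between 74.1 and 91.8 CPM in A2780 (median 80.5) and between 479.7 and 713 CPM in A2780cis (median 563), with a log2 FC of 2.77 (SE 0.075), SNX16 (log2 FC = 2.67), OSGIN2 (log2 FC = 1.77), CPNE3 (log2 FC = 1.07) and NBN (log2 FC = 1.05). Adjacent windows near the end of the long arm of chromosome 8 (142727223 to 143976734 and 143990056 to 144502121) had medians of 0.88 (15 genes higher) and 1.10 (17 genes higher). Of their genes with the highest CPM, TOP1MT (log2 FC = 1.30), EEF1D (log2 FC = 1.01), LY6E (log2 FC = 1.09), PUF60 (log2 FC = 0.88), PLEC (log2 FC = 1.05), BOP1 (log2 FC = 1.26), CPSF1 (log2 FC = 0.91), MAF1 (log2 FC = 0.74) and GRINA (log2 FC = 0.60) were higher, and CYC1 did not differ at both times (log2 FC = 0.37). PLEC and CPSF1 did not pass with scaling by library size alone, nor PLEC with size factors as in DESeq2. On chromosome 20, the window from 2692780 to 4701590 had a median of 1.05 (20 genes higher, 1 lower) and held PRNP, the prion protein gene (log2 FC = 1.95, SE 0.067), ATRN (log2 FC = 0.72), PTPRA (log2 FC = 0.55) and FASTKD5 (log2 FC = 0.46), while MAVS did not differ at both times (log2 FC = 0.26). On chromosome 15 from 51723011 to 56465137 the median was 0.83 (14 higher, 4 lower), but the genes with the highest CPM were mixed. CCPG1, a receptor for autophagy of the endoplasmic reticulum, ranged between 11.9 and 16.9 CPM in A2780 (median 14.5) and between 223 and 385 CPM in A2780cis (median 323), with a log2 FC of 4.37 (SE 0.11), with 39.8% of its exonic bases shared with read-through and neighbouring genes. PRTG (log2 FC = -2.42), ARPP19 (log2 FC = -0.40) and MAPK6 (log2 FC = -0.40) were lower, and RSL24D1 did not differ at both times (log2 FC = 0.24).

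The lowest window lay on chromosome 12 from 14803666 to 24562544, with a median of -2.70 and 16 genes lower and 2 higher. Its genes with the highest CPM were not among the lower ones: LDHB (log2 FC = 0.017), STRAP (log2 FC = -0.074), C2CD5 (log2 FC = -0.14) and PYROXD1 (log2 FC = 0.29) did not differ at both times, and RECQL (log2 FC = 0.32) was higher in the fit reported here but not with size factors as in DESeq2 or library size alone. RECQL shares 41.5% of its exonic bases with PYROXD1 on the other strand. On the short arm of chromosome 8 (12182096 to 20303963) the median was -1.95 (17 lower, 3 higher), while that of the whole chromosome was 0.37. PCM1, a centriolar satellite protein, ranged between 627 and 1002 CPM in A2780 (median 891) and between 159 and 231 CPM in A2780cis (median 204), with a log2 FC of -2.12 (SE 0.079) there, and SLC7A2, a transporter of arginine, between 191 and 225 (median 200.1) and between 39.4 and 58.9 (median 44.5) CPM (log2 FC = -2.14, SE 0.073), both without overlap. ATP6V1B2 was lower too (log2 FC = -0.50), and CNOT7 (log2 FC = -0.089) and INTS10 (log2 FC = 0.22) did not differ at both times. On chromosome 2 (161416297 to 169362534, median -1.87, 17 lower and 6 higher) the sodium channel gene SCN9A ranged between 281 and 442 CPM in A2780 (median 370.2) and between 0.314 and 0.959 CPM in A2780cis (median 0.643), with a log2 FC of -9.22 (SE 0.13) and TTC21B was lower (log2 FC = -0.95), whereas TBR1, CERS6 (log2 FC = 0.47) and STK39 (log2 FC = 0.54) in the same window were higher. On chromosome 6 (24804282 to 27139678, median -1.83, 16 lower and 1 higher) lie histone genes and butyrophilins, of which BTN3A2 was lower (log2 FC = -2.23, SE 0.094), ABT1 was lower (log2 FC = -0.63), and BTN2A1 (log2 FC = 0.14), HMGN4 (log2 FC = -0.13) and ZNF322 (log2 FC = -0.084) did not differ at both times. On chromosome 7 (92560758 to 98401090, median -1.67, 17 lower and 2 higher) ASNS, the asparagine synthetase, ranged between 399.6 and 626 CPM in A2780 (median 465) and between 84.7 and 155 CPM in A2780cis (median 112), with a log2 FC of -2.10 (SE 0.08), next to COL1A2, CDK6, DLX5 and DLX6. SLC25A13 (log2 FC = -1.01) and SEM1 (log2 FC = -0.39) were lower, SEM1 not in the fit on all 24 libraries, and PON2 (log2 FC = 0.18) and FAM133B (log2 FC = -0.20) did not differ at both times.

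The longest run of neighbouring genes with a log2 FC of the same sign held 72 genes on chromosome 1 from 85156889 to 101996926. All 72 had lower fitted levels, 69 of them at both times, with a median of -1.2. This run held LRRC8B, LRRC8C, LRRC8D and GCLM, described above with transport and glutathione, the guanylate-binding protein genes induced by interferon, such as GBP1 (mean 125 against 1.139 CPM), and RPL5 (mean 1247 against 834 CPM), the last 2 named after their values were seen. A second run on the same chromosome, from 110338506 to 112711433, held 22 genes, 21 of them lower. On chromosome 13, runs of 47 genes (76990660 to 112887168, 40 lower) and 28 genes (25301524 to 36131382, 25 lower) were found. On chromosome 19, 28 genes from 19645198 to 29213151, most of them zinc finger genes that are similar in sequence, had a median of -1.17 with 22 lower. Runs of higher genes held 34 genes on chromosome 8 from 143990056 to 144792587 (21 higher) and 27 from 124474880 to 141308305 (20 higher). Chromosome 11 had a run of 28 genes from 66744451 to 68050895, of which only 8 were higher at both times. It also had a run of 20 genes with lower levels from 27365961 to 33162371 (12 lower). Further runs of higher genes held 27 genes on chromosome 20 from 2835314 to 5126626 (21 higher) and 26 on chromosome 5 from 141330514 to 141651418 (24 higher). The last is the gamma-protocadherin cluster, whose transcripts share exons, so that its genes are not separate measurements.

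The line difference at 12 h was also tested against that at 6 h. The test of whether the log2 FC at 12 h differed from that at 6 h passed for 2 of 18496 genes (0.0108%), EGR1 and LINC02303, with 1625 at an unadjusted p-value below 0.05. A share of about 0.05 of all genes falls below that cut-off without any true difference, so that 1625 does not count genes that differed between the times. EGR1, an immediate early gene, had 5.73 ± 0.656 CPM in A2780 and 49.7 ± 9.24 CPM in A2780cis at 6 h, and 10.4 ± 1.29 and 31.8 ± 3.02 CPM at 12 h (SD, n = 3). Its log2 FC was 3.12 at 6 h and 1.60 at 12 h (edgeR quasi-likelihood test of the difference, Benjamini-Hochberg adjusted p = 0.0253). A2780cis was higher at both times, by less at 12 h. The lncRNA LINC02303 had 63.1 ± 5.38 and 81.1 ± 7.62 CPM at 6 h and 57.3 ± 6.12 and 36.0 ± 3.57 CPM at 12 h, so that its log2 FC went from 0.36 to -0.67 (edgeR adjusted p = 0.0299). Both calls depended on the library set: when 1 library was left out, between 0 (without A2780 6 h replicate 1, among others) and 17 genes (without A2780 12 h replicate 1) passed. Of the 4 genes with the smallest p-values in each direction, the log2 FC at 12 h was also below that at 6 h for DKK1, a WNT inhibitor (1.62 at 6 h and 0.96 at 12 h), and CTH, which makes cysteine (2.88 and 1.93). It was above that at 6 h for ID1 (0.56 and 1.36), ENO3 (-2.06 and -1.07), HSPA1B (0.62 and 1.58) and APOL2 (-1.62 and -0.88), none of the 6 past the threshold.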

How the data were processed

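Total RNA was sequenced in 24 libraries (stranded kit), and the 12 from cells without the drug were analysed here. The authors deposited 1 table of expected counts (featureCounts, with fractions for reads that map to several places), made after Trimmomatic and STAR 2.5.2b on GRCh38.p7 per the submitters' processing notes. The strand setting of the counting is not given in the sources used here. Between 9.50% and 12.3% of a library's values were not whole. Values were rounded, filtered (filterByExpr, minimum count 10, minimum total 15, 4 groups), scaled by TMM and tested with edgeR 4.0.16 (R 4.3.3), as a line effect with time as covariate (9 residual degrees of freedom) and per time in a model of 4 groups (8). P-values were adjusted over all genes tested after Benjamini and Hochberg at 0.05. On simulated data, 97 of 100 genes with a log2 change of 1, 100 of 100 with 2, and 0 of 17834 unchanged genes were called at both times. The changed genes were drawn from abundant genes, equally many in each direction, and were far fewer than the genes that differed here. The simulation therefore does not give the error among the calls made on these data. How often a change is called in genes with few counts was not tested separately. IDs were matched to GENCODE 44 (56948 of 63299). Named genes are the 12 largest changes per direction among abundant protein-coding genes without overlap, up to 5 members per list, all members of the transport, metallothionein, mismatch and excision repair, stress and damage response, BCL2 and CDK inhibitor lists, the 8 most abundant floor genes per line, 5 genes per window and 4 per direction of the time test. Some genes this rule names are not reported here. Members and lists were chosen with earlier results of these data known. Alternatives were other scalings, no filter, unrounded counts, a replicate block, all 24 libraries, DESeq2 1.42.0, no lncRNA or rRNA genes, and leaving out each library.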

Additional observations from a re-analysis of the deposited data

Results flagged for a closer look

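EGR1 and LINC02303 stood out because the difference between the lines was not the same at both times by the test of that difference itself. For EGR1 the log2 FC at 12 h minus that at 6 h was -1.51, and for LINC02303 it was -1.03. EGR1 was higher in A2780cis at either time, whereas LINC02303 had its higher mean in A2780cis at 6 h and in A2780 at 12 h. What moved with these values was not tested.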

How the results depend on the processing

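The 7831 genes that differed at both times numbered 7348 to 7869 when any 1 library was left out, the higher ones 3315 to 3826 and the lower ones 3839 to 4277. Between 7148 and 7823 of the genes called were called again with the same sign in each alternative other than that without lncRNA and rRNA genes, which tested 6846 of them and kept 6521. In no alternative was one called with the opposite sign. The genes at the floor numbered 112 to 129 in A2780 and 491 to 531 in A2780cis with a library left out, and 296 and 818 when up to 10 counts were allowed. With windows of 50 genes the highest and lowest medians were 0.97 and -1.38, and the median of chromosome 8 was 0.33 with scaling by library size alone. The replicate block gave 8016 genes at both times, and of the 6 same-numbered pairs of libraries 2 had a correlation of deviations above 0.1 (range -0.12 to 0.34), so that the numbers were not taken as pairs. The count of 2 genes in the time test was 1 with size factors as in DESeq2, 0 with library size alone, 203 without a filter, 6 with all 24 libraries, 25 by DESeq2, 1 without lncRNA and rRNA genes, and 0 to 17 with a library left out (17 without A2780 12 h replicate 1). The cause was not tested. Without lncRNA and rRNA genes, or with library size alone, the share of higher calls was 45.38% and 44.26%, against 48.46%. Genes that did not differ and changed the sign of the log2 FC were, with library size alone, DDB1 (-0.0135), LDHB (-0.0196), TNFRSF10B (-0.0281); without a filter, ERCC3 (0.0311), MMS19 (0.0256), POLH (0.0249), UVSSA (0.016); with all 24 libraries, ERCC3 (0.00918), MMS19 (0.00533), POLH (0.00324); without lncRNA and rRNA genes, AEN (-0.00463), DDB1 (-0.0266), LDHB (-0.0297), TNFRSF10B (-0.0392). With a library left out, they were BCL2L11 (-0.0182 to 0.162), DDB1 (-0.0273 to 0.0491), ERCC3 (-0.0458 to 0.027), LDHB (-0.0539 to 0.058), MMS19 (-0.0568 to 0.013), MT1X (-0.0300 to 0.135), POLH (-0.0504 to 0.0192), RPS27L (-0.142 to 0.0125), TNFRSF10B (-0.0403 to 0.0393), UVSSA (-0.0748 to 0.0446). Depth of at least 11077368 counts limits the genes with few counts most.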
